A study of Rattus norvegicus with 24 samples.

Results

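Transcripts of the insulin-like growth factor (IGF) system were followed in rat tibialis anterior over 30 days of daily resistance training. The system was taken as 10 genes, picked out by gene symbol: the growth factors Igf1 and Igf2, the receptors Igf1r and Igf2r, the adaptor Irs1 and the binding proteins Igfbp3, Igfbp4, Igfbp5, Igfbp6 and Igfbp7. These 10 genes are 10 of the 15273 gene symbols and 14 of the 20027 transcripts measured, and the values of all transcripts of a gene were summed. A filter kept genes that reached a value of 1 in 3 or more muscles, and 9 of the members were among the 11196 genes tested, and Igf1r was not.

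The muscles came from 12 male Wistar rats, 3 for each of 2, 10, 20 and 30 days, in which an implanted pulse generator drove SpillOver training of the left leg once a day, with 5 sets of 10 contractions. Stimulation of the common peroneal nerve contracted the dorsiflexors against co-contracting plantarflexors, and tissue was taken 1 h after the last bout. The trained left muscle and the unstimulated right muscle of each rat were sequenced, so every control muscle came from an animal that carried the implant and trained its other leg, and no muscle of a rat without stimulation was analysed here. For the comparisons, the 12 contralateral muscles formed the control group (n = 12) against 3 trained muscles at each time point (n = 3). The design text gives 4 animals per time point and the labels give 3.

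IGF-1 and IGF-2 are peptide hormones made in the liver and also locally in muscle. Both signal through the type 1 receptor (Igf1r), whose kinase recruits insulin receptor substrates such as Irs1 and so activates Akt and mTOR, a pathway known for driving muscle protein synthesis. The type 2 receptor (Igf2r) carries IGF-2 to the lysosome. Binding proteins hold the growth factors outside the cell and can restrain or prolong their action, and proteases release the growth factors again.

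Levels are TPM-type values, which are corrected for transcript length and keep no sequencing depth, here divided by a size factor per muscle. Fold changes are log2 differences of value + 1 between trained and control muscles with their standard error (SE), tested with limma and adjusted over all tested genes by the Benjamini-Hochberg method, and a gene was called at an adjusted p under 0.05. Size factors ran from 0.778 to 1.14. The share of mitochondrially encoded transcripts was 28.1% to 44.2% in control muscles, where control muscle 1 of 30 days had the highest share and the next highest was 35.0%. In trained muscles it differed by time point: 25.3% to 28.8% at 2 days, 23.7% to 27.7% at 10 days, 31.5% to 36.0% at 20 days and 40.4% to 44.6% at 30 days. Size factors of trained muscles also differed, from 1.02 to 1.14 at 10 days and from 0.807 to 0.915 at 30 days. Markers of skeletal muscle fibres dominated every muscle (summed level 73485 to 84464 in the controls), which fits the labelled tissue. Muscles from 1 animal resembled each other weakly, so the fit with animal as a block is given beside each member whose call it changed.

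The genomic start regions of 4 members are shown as examples: Igf2, Igfbp4 and Igfbp6 were called higher at 10, 20 and 30 days, as was Igfbp7, which is not shown, and Igfbp5 was called lower at 2 and 10 days. Each is the 250 bases before the start site given by RefSeq for the rat assembly GRCr8, read 5′ to 3′ on the strand of the gene, and for Igf2 the second of its 2 start sites is given. Capitals mark the TATA box motif TATAAA.
Igf2, chr1:207250476-207250725, minus strand: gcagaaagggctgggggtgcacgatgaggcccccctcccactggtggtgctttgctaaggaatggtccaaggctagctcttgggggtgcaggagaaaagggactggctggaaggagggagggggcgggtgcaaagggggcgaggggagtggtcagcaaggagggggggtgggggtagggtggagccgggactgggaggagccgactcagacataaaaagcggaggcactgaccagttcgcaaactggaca
Igfbp4, chr10:84491221-84491470, plus strand: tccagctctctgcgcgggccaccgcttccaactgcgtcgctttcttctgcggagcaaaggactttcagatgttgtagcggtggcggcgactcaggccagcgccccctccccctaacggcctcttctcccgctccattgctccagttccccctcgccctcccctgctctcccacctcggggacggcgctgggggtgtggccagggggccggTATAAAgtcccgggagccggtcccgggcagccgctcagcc
Igfbp6, chr7:135154669-135154918, plus strand: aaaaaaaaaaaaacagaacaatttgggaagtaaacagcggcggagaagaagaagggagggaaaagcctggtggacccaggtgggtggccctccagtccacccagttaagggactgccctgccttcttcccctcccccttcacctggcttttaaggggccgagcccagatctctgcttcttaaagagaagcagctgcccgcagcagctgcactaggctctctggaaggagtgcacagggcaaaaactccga
Igfbp5, chr9:81914188-81914437, minus strand: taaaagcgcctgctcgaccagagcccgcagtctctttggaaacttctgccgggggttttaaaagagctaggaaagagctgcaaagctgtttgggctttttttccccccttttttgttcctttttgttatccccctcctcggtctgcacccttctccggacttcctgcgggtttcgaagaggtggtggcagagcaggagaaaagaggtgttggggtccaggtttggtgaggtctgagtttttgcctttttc

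All 10 members matched the RefSeq table, with 11 start regions in all. Each region was searched for 3 motifs on both strands. The TATA box motif TATAAA was found in 1 of the 11, that of Igfbp4, 40 bases before the start, against 12.9% of all 33469 start regions. An E-box, CACGTG, was found in 2, once in Igf1r and at 2 places in Igf2r, against 5.59% of all regions. TGANTCA, the letters of an AP-1 motif, was found in 0 of the 11 and in 6.34% of all. GC content was 46.8% for Igf1, 51.6% for Igfbp5 and 54.8% for Igfbp6, and lay between 62.4% and 79.6% in the others. These are matches of letters only.

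More members rose than fell in the trained muscle, and the binding proteins moved in opposite directions. At 2 days Igfbp4 and Igfbp6 were called higher, as were 15.4% of all tested genes, and Igfbp5 was called lower, as were 13.5%. At 10 days 5 members were called higher (Igf1, Igf2, Igfbp4, Igfbp6 and Igfbp7; all genes 15.6%) and Igfbp5 again lower (13.3%). The same 5 members were called higher at 20 days (11.7%) and 0 lower (9.64%), with 6 of the 9 at an unadjusted p under 0.05 in either direction. At 30 days 4 members were higher (Igf2, Igfbp4, Igfbp6 and Igfbp7; 11.1%) and 0 lower (9.46%), with 5 of the 9 at an unadjusted p under 0.05. The median log2 fold change of the 9 members was 0.22, 0.74, 0.85 and 0.49 at 2, 10, 20 and 30 days, beside −0.01, −0.03, −0.03 and −0.01 for all tested genes. Members were chosen with earlier results of these data known, so these counts and medians describe the list and do not test it.

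Over all 12 pairs of muscles, with animal as a block, 5 members were called higher (19.7% of all genes) and 1 lower (20.5%). The split of calls over all genes depended on scaling. With values as deposited, 2132 genes were higher and 731 lower at 2 days against 1728 and 1507 after scaling, 2096 and 682 at 10 days against 1746 and 1494, and 647 and 2590 at 30 days against 1245 and 1059. The median of all genes then lay at −0.18 at 30 days, but no called member changed its direction under any scaling.

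**Figure D1:**
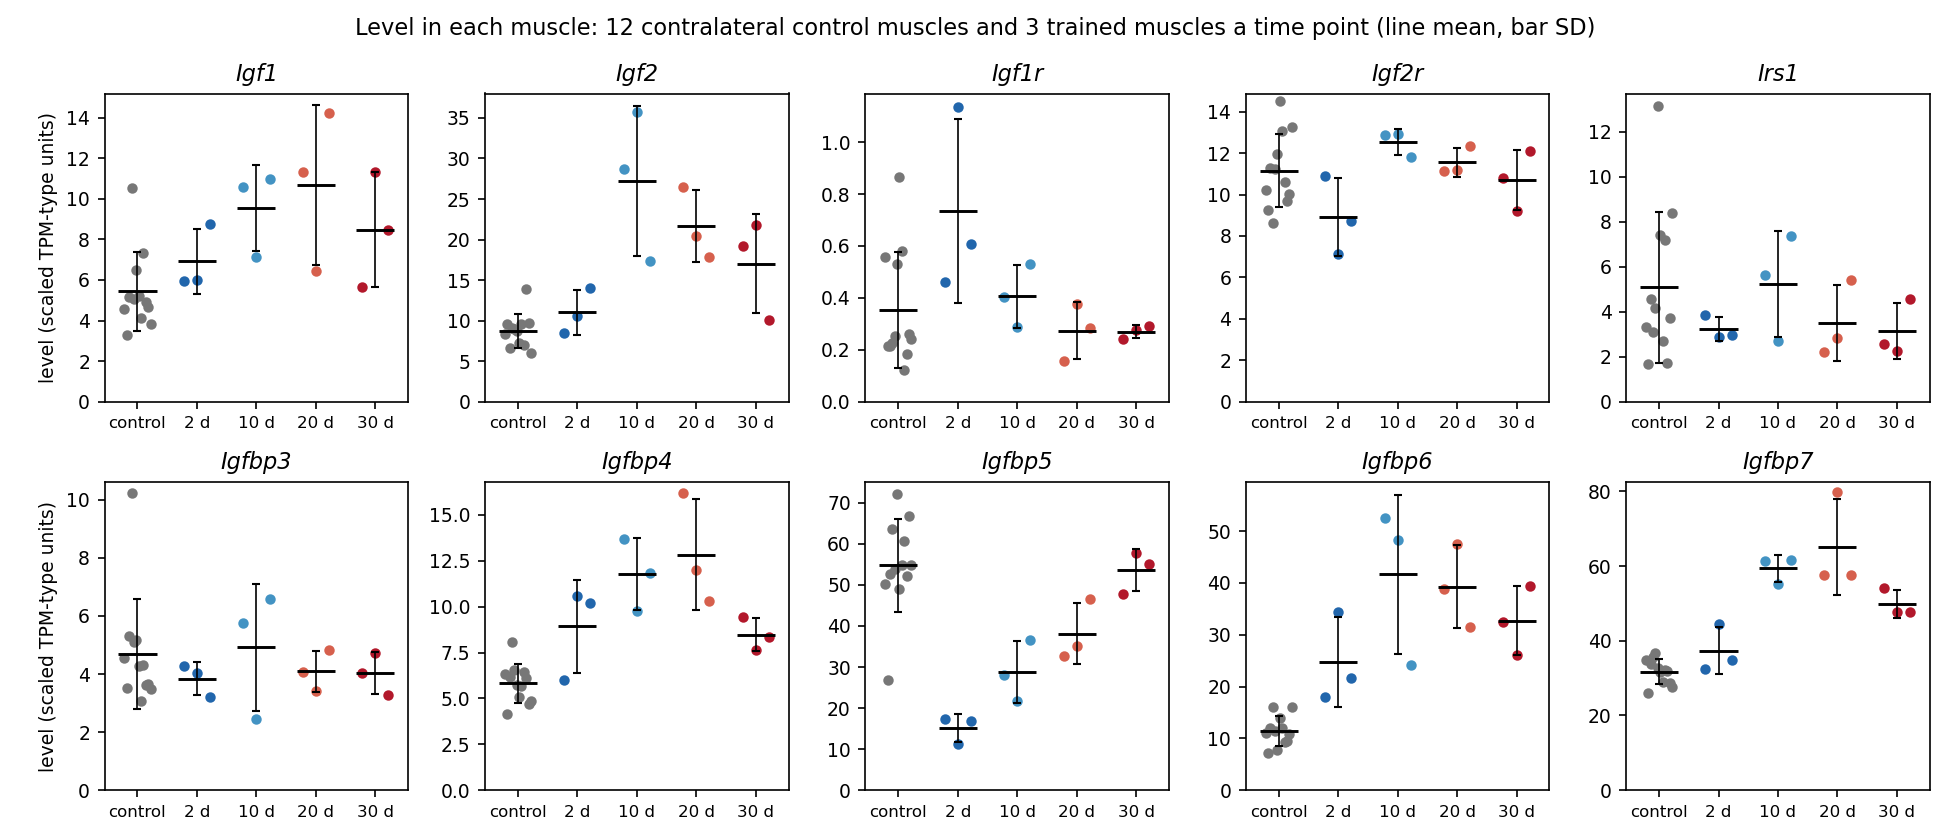
Level of each member in every muscle, in scaled TPM-type units on axes that start at 0. Grey points are the 12 contralateral control muscles and coloured points the 3 trained muscles of 2, 10, 20 and 30 days (d), with lines for the mean and bars for the SD; Igfbp6 lies above all controls at every time point and Igfbp5 below them at 2 days.

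Igf2, the ligand best known from fetal growth, was called higher at 10, 20 and 30 days. Its level in control muscles was 8.73 ± 2.06 (SD, n = 12), from 6.04 to 13.9 with a median of 8.86. After 2 days the 3 trained muscles held 8.46, 10.6 and 14, of which the last lay just above the control range. At 10 days they held 28.7, 35.7 and 17.4, at 20 days 26.5, 20.4 and 17.9, and at 30 days 19.2, 21.7 and 10.1. All trained muscles of 10 and 20 days lay above the controls, while at 30 days 1 of the 3 lay among them.

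The log2 fold change of Igf2 was 0.31 at 2 days (SE 0.21, adjusted p = 0.298), 1.51 at 10 days (adjusted p = 8.72e-06), 1.23 at 20 days (adjusted p = 1.69e-04) and 0.85 at 30 days (adjusted p = 0.00587). In each animal the trained muscle was above its own contralateral muscle (12 of 12), by ratios from 1.02 to 3.98, and the change over the 12 pairs was 0.97 (SE 0.15, adjusted p = 7.68e-05). Trained muscles differed between time points (limma F test, adjusted p = 0.0172), although not without replicate 1 (adjusted p = 0.0641) or replicate 2 (adjusted p = 0.0680) of 2 days. The change at 30 days missed the threshold without trained replicate 1 (0.74, adjusted p = 0.0506) or 2 (0.65, adjusted p = 0.0849) and against the controls of that day alone (0.73, adjusted p = 0.113), and it was 0.32 in the gene-level table of the authors (adjusted p = 0.0625).

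The table quantifies 3 Igf2 transcripts, all on chromosome 1 of Rnor_6.0 on the minus strand and all protein coding. Igf2-202 (from 215828102 to 215834704) made up 63.3% ± 13.7 (SD, n = 12) of Igf2 in controls and 50.2% ± 5.80, 67.9% ± 8.95, 54.0% ± 4.96 and 65.1% ± 2.12 (SD, n = 3 each) in trained muscles of 2, 10, 20 and 30 days. The 2 longer transcripts, which end at 215838209 and 215836641, made up 26.3% ± 14.3 and 10.5% ± 6.12 of Igf2 in controls. The shares in trained muscles lay inside the control range of 29.3% to 78.5% for Igf2-202, so the rise was not tied to 1 transcript. These transcripts share most of their span, and how the reads were divided among them was not examined.

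Igf1, the main growth-promoting ligand, was called higher at 10 and 20 days. In controls it stood at 5.44 ± 1.94 (SD, n = 12), with a lowest value of 3.28, a median of 5.0 and a highest of 10.5, the last in control muscle 1 of 10 days. Trained muscles held 5.96, 6.01 and 8.77 at 2 days, 10.6, 7.12 and 11 at 10 days, 11.3, 6.45 and 14.3 at 20 days and 5.66, 11.3 and 8.47 at 30 days. At every time point at least 1 trained muscle fell inside the range of the controls.

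Against the 12 controls the log2 fold change of Igf1 was 0.33, 0.74, 0.85 and 0.56 at 2, 10, 20 and 30 days (SE 0.23), with adjusted p = 0.301, 0.0181, 0.0101 and 0.0889. Set against the other leg of the same animal, Igf1 was higher in 12 of 12 rats, with ratios from 1.01 to 2.42 and a mean change of 0.62 (SE 0.09, adjusted p = 6.53e-05). With animal as a block the calls by day shifted: the change was called at 2 days (0.57, adjusted p = 0.0388) and 30 days (0.75, adjusted p = 0.0163) but not at 10 days (0.37, adjusted p = 0.173). In the 10-day animal with the smallest ratio both legs were high, at 10.5 and 10.6.

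The Igf1 calls at 10 and 20 days also rested on single muscles. Without trained replicate 1 or 3 the adjusted p was 0.101 or 0.0987 at 10 days and 0.0617 or 0.113 at 20 days, and time-matched controls gave 0.400 and 0.0574. At 30 days the change passed without control muscle 1 of 10 days (0.64, adjusted p = 0.0262) or without trained replicate 1 (0.80, adjusted p = 0.0435). Over all alternatives the limma log2 fold change at 30 days ran from 0.30 to 0.80 and the adjusted p from 0.0163 to 0.433. Igf1 in trained muscles did not differ between time points (adjusted p = 0.558).

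Igf1 lies on the plus strand of chromosome 7, where 3 protein-coding transcripts end at 28486609. Igf1-202, from 28412198, made up 83.1% ± 11.1 (SD, n = 12) of Igf1 in control muscles and 83.9% ± 9.05, 85.2% ± 11.8, 85.2% ± 14.3 and 68.7% ± 13.1 (SD, n = 3) in the trained groups of 2, 10, 20 and 30 days. Igf1-204 starts downstream, at 28414350, and made up 1.13% ± 2.29 (SD, n = 12) in controls. In the trained muscles of 30 days its share was 0.467%, 17.9% and 35.4%, so that 2 of the 3 exceeded the highest control share of 6.09% and 1 did not. One muscle of 2 days (13.6%) and another of 10 days (10.6%) also exceeded it.

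**Figure D2:**
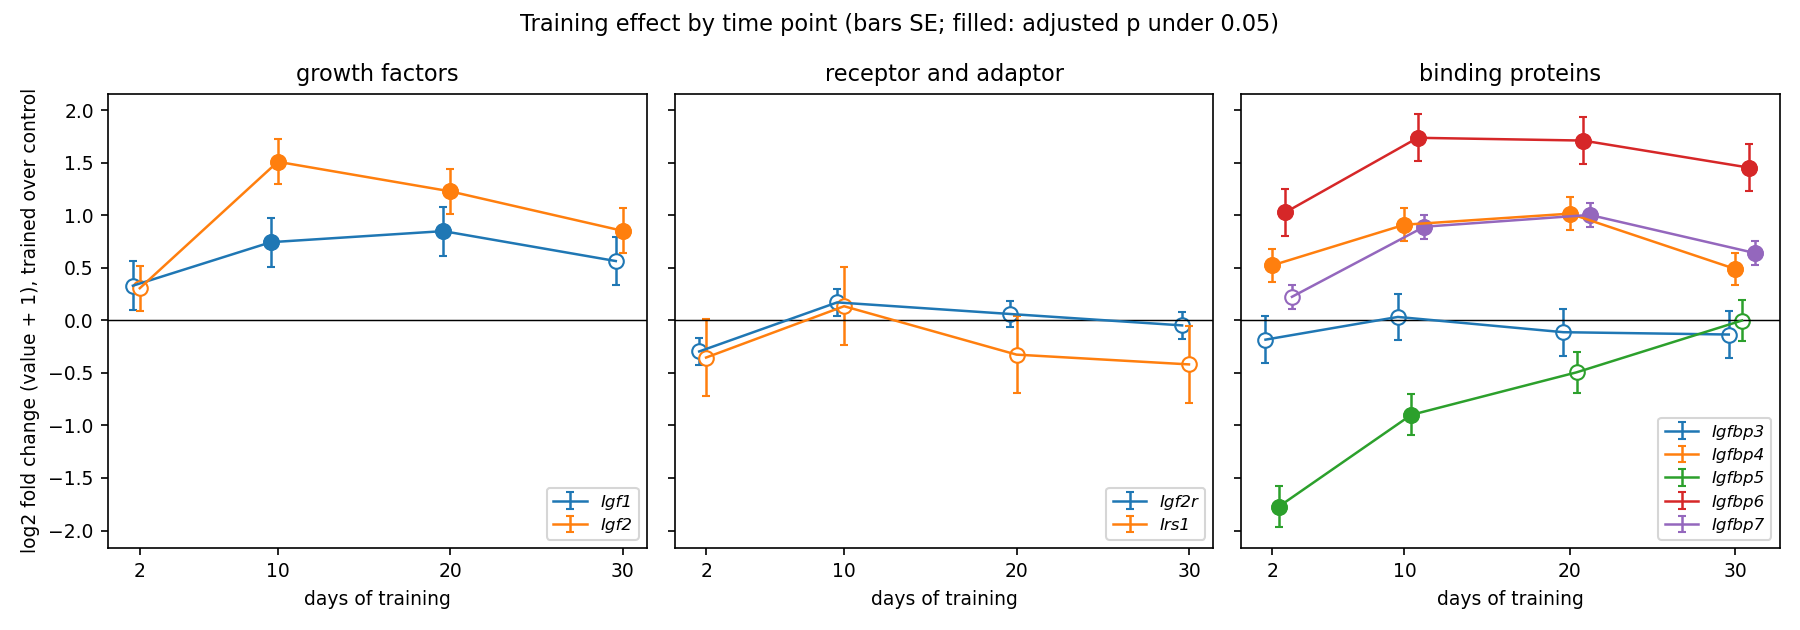
Log2 fold change of value + 1 in trained against control muscles over days of training, in panels for growth factors, receptor and adaptor, and binding proteins, with bars for the SE and filled points at an adjusted p under 0.05. Igfbp6 stays above 1 throughout, while Igfbp5 climbs from −1.77 at 2 days to −0.00 at 30 days.

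Igf2r and Irs1 did not pass the test at any time point against the 12 controls, and Igf1r, removed by the filter, was not tested in that fit. Igf1r, the signalling receptor, was present at a very low level, 0.354 ± 0.224 (SD, n = 12) in controls. Its trained muscles held 0.462, 1.14 and 0.608 at 2 days, and values from 0.157 to 0.529 later. In a fit without the filter its log2 fold change at 2 days was 0.36 (SE 0.13, adjusted p = 0.0461), which rested on values near or below 1, and at 10, 20 and 30 days it was 0.07, −0.08 and −0.08.

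Igf2r, the clearance receptor, was far more abundant than Igf1r, with 11.1 ± 1.77 (SD, n = 12) in controls and a highest trained group mean of 12.5 ± 0.621 (SD, n = 3) at 10 days. Its log2 fold change was −0.30 at 2 days (SE 0.13, adjusted p = 0.0787), where the muscles held 10.9, 7.12 and 8.74, and 0.17, 0.06 and −0.05 later. It was called at 2 days without trained replicate 1 (−0.44, adjusted p = 0.0212) and without control muscle 1 of 10 days (−0.33, adjusted p = 0.0459). Over the 12 pairs the change was −0.03 (SE 0.08).

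Irs1 spread widely between muscles: controls ran from 1.68 to 13.1 around a median of 3.94, and trained muscles from 2.22 to 7.35. Its log2 fold changes were −0.36, 0.13, −0.33 and −0.42 with an SE of 0.37, so changes of this size were not distinguishable from the spread. In the pairs it was higher in 5 rats and lower in 7 (−0.24, SE 0.15, adjusted p = 0.232).

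Irs2, the other insulin receptor substrate of muscle and not one of the 10 members, rose at every time point. The controls of Irs1 and Irs2 stood at a similar length-corrected level, 5.09 ± 3.36 and 4.76 ± 1.68 (SD, n = 12). Irs2 ran from 2.75 to 9.07 in controls, and reached 36.4 ± 7.19, 46.3 ± 3.39, 38.8 ± 11.1 and 34.6 ± 5.01 (SD, n = 3) at 2, 10, 20 and 30 days. Its lowest trained muscle held 29.4, above every control. The log2 fold changes were 2.73, 3.09, 2.80 and 2.67 (SE 0.20), with adjusted p between 5.12e-11 and 1.77e-09, and it was higher in 12 of 12 animals.

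Igfbp5, the most abundant binding protein of the 5 in control muscle and known for its part in myogenic differentiation, was lower early and back in the control range by 30 days. Controls held 54.8 ± 11.3 (SD, n = 12), with a lowest value of 26.8, a median of 54.3 and a highest of 72.0. The lowest came from control muscle 2 of 2 days, and the other 11 held 48.9 or more. Trained muscles held 17.4, 11.3 and 17 at 2 days, 27.9, 21.8 and 36.7 at 10 days, 32.7, 35.1 and 46.5 at 20 days and 47.9, 57.8 and 55.0 at 30 days. The groups did not overlap at 2 days, and at 10 and 20 days the trained muscles were below all controls except that 1.

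Igfbp5 lay closer to the other leg in the rats of later time points, which were different animals each time, and the ranges of 2 and 10 days overlapped. The ratio of trained to own contralateral muscle was 0.321 to 0.420 at 2 days, 0.405 to 0.509 at 10 days, 0.640 to 0.767 at 20 days and 0.865 to 1.00 at 30 days. The log2 fold change of −1.77 at 2 days (SE 0.20, adjusted p = 2.88e-07) became −0.90 at 10 days (adjusted p = 0.00108), −0.50 at 20 days (adjusted p = 0.0743) and −0.00 at 30 days (adjusted p = 0.996). The value at 20 days passed with animal as a block (−0.52, adjusted p = 0.00745) and without control muscle 2 of 2 days (−0.58, adjusted p = 0.00541). How fully Igfbp5 had returned at 30 days depended on the setting. Over all alternatives its limma log2 fold change then ran from −0.44 to 0.08, with an adjusted p of 0.0894 or more. As deposited, the trained muscles of 30 days held 43.8, 46.7 and 46.6, and the controls ran from 24.5 to 77.6.

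Igfbp5 was the member whose training effect differed between time points (limma F test with animal as a block, adjusted p = 0.00695; all genes 1.14%). That test missed the threshold without the block (adjusted p = 0.0880) and with values as deposited (adjusted p = 0.0961). Among trained muscles alone, levels differed between time points for Igf2, Igfbp5 and Igfbp7 (all genes 12%), with adjusted p = 2.93e-04 for Igfbp5 and 0.00256 for Igfbp7. In control muscles 0 of the 9 members differed between days by the limma F test (all genes 0.152%), and 1, Igfbp3, had an unadjusted p under 0.05.

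**Figure D3:**
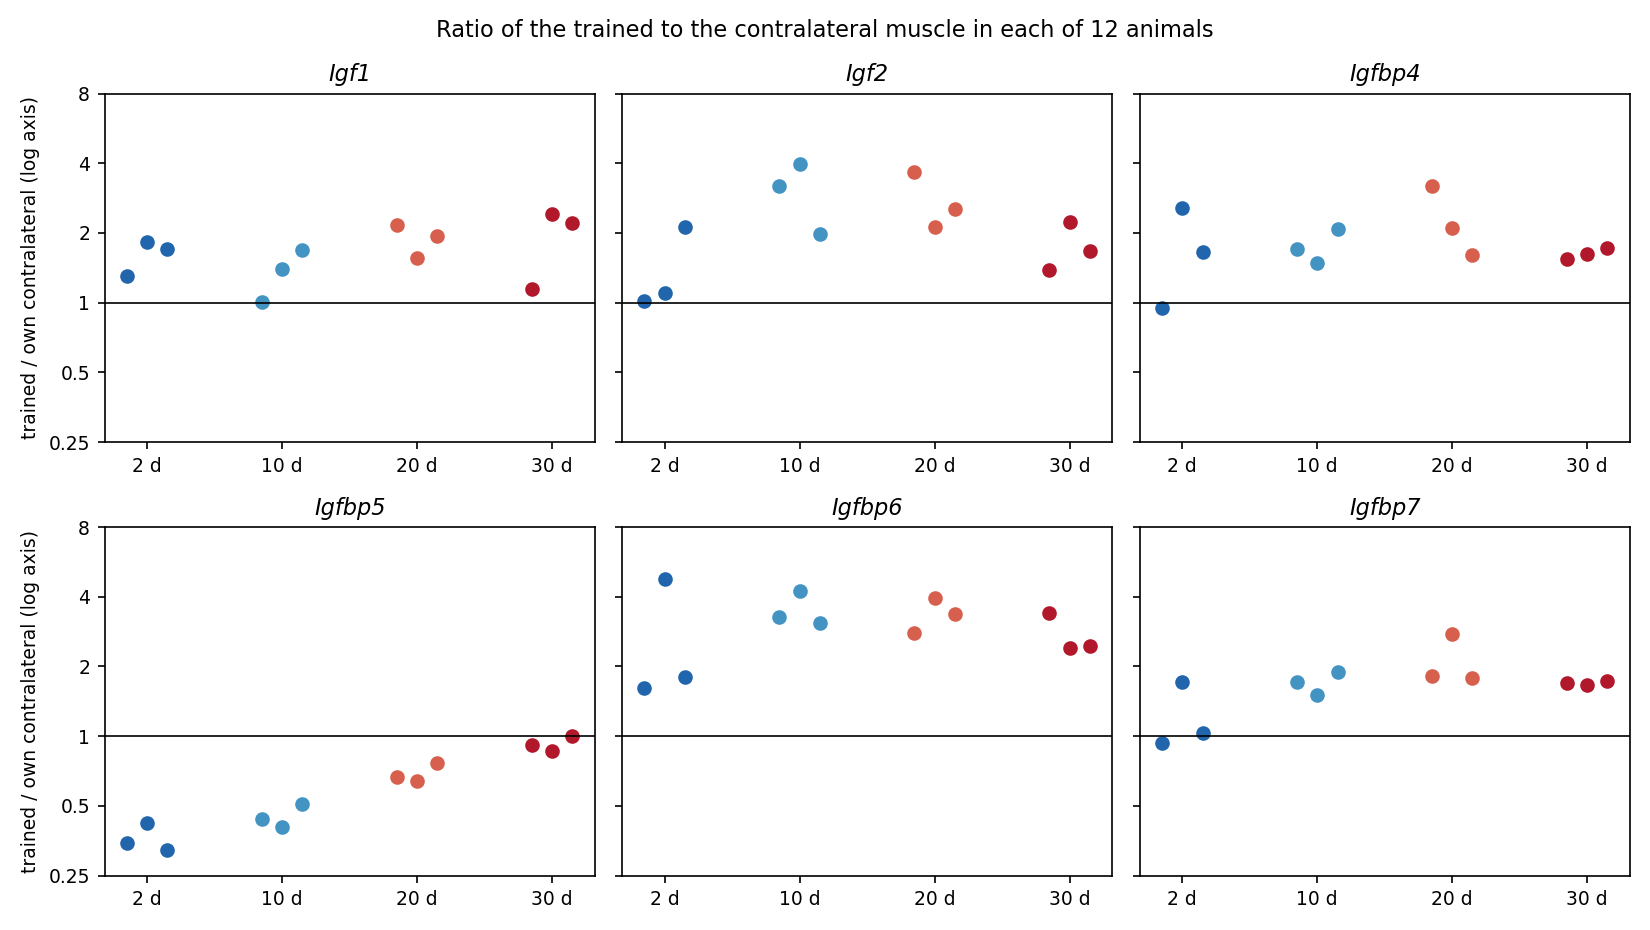
Ratio of the level in the trained muscle to that in the contralateral muscle of the same animal for 6 members, on a log axis, with 1 point per animal and 3 animals at each of 2, 10, 20 and 30 days. Igf1, Igf2 and Igfbp6 lie above 1 in all 12 animals, and Igfbp5 approaches 1 from 0.321 to 0.420 at 2 days.

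Igfbp6, which binds IGF-2 in preference to IGF-1, was the member with the highest fold change at 10, 20 and 30 days. Controls held 11.5 ± 2.84 (SD, n = 12), from 7.24 to 16.1 with a median of 11.2. The trained muscles held 17.9, 34.5 and 21.6 at 2 days, 52.6, 48.3 and 24.1 at 10 days, 38.9, 47.6 and 31.4 at 20 days and 32.5, 26.2 and 39.4 at 30 days. All 12 trained muscles lay above all 12 controls.

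The log2 fold change of Igfbp6 was 1.03, 1.74, 1.71 and 1.45 at 2, 10, 20 and 30 days (SE 0.23), with adjusted p = 0.00126, 2.58e-06, 5.59e-06 and 5.90e-05. Over the 12 pairs it was 1.48 (SE 0.12, adjusted p = 8.87e-08), with ratios from 1.62 to 4.76. These calls held under every alternative that was run, although the value at 30 days was 0.83 in the gene-level table. Its levels in trained muscles were not distinguishable between time points (adjusted p = 0.232).

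Igfbp7, a secreted protein of low affinity for IGFs that is found around vessels and in the matrix, was second in abundance in controls with 31.7 ± 3.33 (SD, n = 12), from 26 to 36.7 with a median of 32. At 2 days its trained muscles held 32.6, 44.6 and 34.9 and overlapped the controls (0.22, SE 0.11, adjusted p = 0.140). They held 61.3, 55.3 and 61.8 at 10 days, 57.7, 79.8 and 57.5 at 20 days and 54.1, 47.7 and 47.7 at 30 days, all above the controls. Its log2 fold changes then were 0.89, 1.00 and 0.64, with adjusted p = 1.79e-06, 5.68e-07 and 2.50e-04, and with values as deposited that at 30 days was 0.42 (adjusted p = 0.0292).

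Igfbp4, a binding protein known mainly as an inhibitor of IGF action, held 5.82 ± 1.04 (SD, n = 12) in controls, with a range of 4.13 to 8.06 and a median of 5.90. Trained muscles held 6.0, 10.6 and 10.2 at 2 days, 13.7, 9.76 and 11.9 at 10 days, 16.2, 12 and 10.3 at 20 days and 9.45, 7.62 and 8.37 at 30 days. At 10 and 20 days every trained muscle was above the controls, with log2 fold changes of 0.91 (SE 0.16, adjusted p = 8.90e-05) and 1.01 (adjusted p = 3.95e-05), the latter 0.64 in the gene-level table (adjusted p = 4.75e-04).

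The Igfbp4 changes at 2 days (0.52, adjusted p = 0.0137) and 30 days (0.49, adjusted p = 0.0273) were less firm. With animal as a block they were 0.58 (adjusted p = 0.0537) and 0.61 (adjusted p = 0.0652). Omitting trained replicate 2 or 3 of 2 days gave an adjusted p of 0.166 or 0.116, and omitting any of the 3 trained muscles of 30 days gave 0.0513 to 0.136. At 30 days the value was 0.29 as deposited (adjusted p = 0.186) and 0.05 in the gene-level table of the authors (adjusted p = 0.721). In the 12 pairs Igfbp4 was higher in 11 animals, with a change of 0.73 (SE 0.10, adjusted p = 3.12e-05).

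Igfbp3, the main carrier of IGFs in blood, was not called at any time point. Controls held 4.69 ± 1.89 (SD, n = 12), with 10.2 in control muscle 1 of 10 days and at most 5.30 in the others, and trained muscles ran from 2.44 to 6.57. Its log2 fold changes were −0.18, 0.03, −0.11 and −0.14 (SE 0.22), and the change over the 12 pairs was −0.10 (SE 0.10, adjusted p = 0.473).

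The 5 binding protein transcripts together changed in make-up as well as in amount. Their summed level was 108 ± 15.6 (SD, n = 12) in controls and 90.0 ± 13.7, 147 ± 12.8, 159 ± 16.1 and 149 ± 4.88 (SD, n = 3) at 2, 10, 20 and 30 days. Igfbp5 made up 50.1% ± 5.25 (SD, n = 12) of that sum in controls, from 39.6% to 58.3%, and 17.5% ± 6.02, 19.7% ± 5.50, 24.2% ± 5.93 and 36.1% ± 3.91 (SD, n = 3) in the trained groups. Igfbp6 went from 10.6% ± 2.29 to 26.9% ± 5.26, 28.3% ± 9.75, 24.5% ± 3.19 and 21.9% ± 3.73. For Igfbp5 and Igfbp6 every trained muscle of 2, 10 and 20 days was outside the control range of its share. At 30 days the highest Igfbp5 share, 40.2%, was inside it, although the scaled level of Igfbp5 was back in the control range in all trained muscles.

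Binding protein transcripts were also set against growth factor transcripts. The sum of Igf1 and Igf2 was 14.2 ± 2.74 (SD, n = 12) in controls and 17.9 ± 4.31, 36.8 ± 7.53, 32.3 ± 5.49 and 25.5 ± 7.25 (SD, n = 3) in the trained groups. Each unit of growth factor transcript was accompanied by 7.84 ± 1.51 units of binding protein transcript in controls and by 5.19 ± 1.27, 4.10 ± 0.879, 5.08 ± 1.38 and 6.19 ± 1.97 after 2, 10, 20 and 30 days. At 10 days all 3 muscles, with at most 4.97, were below the lowest control of 5.26, and at the other time points the ranges overlapped. These sums and ratios are descriptions of transcript levels and were not tested.

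**Figure D4:**
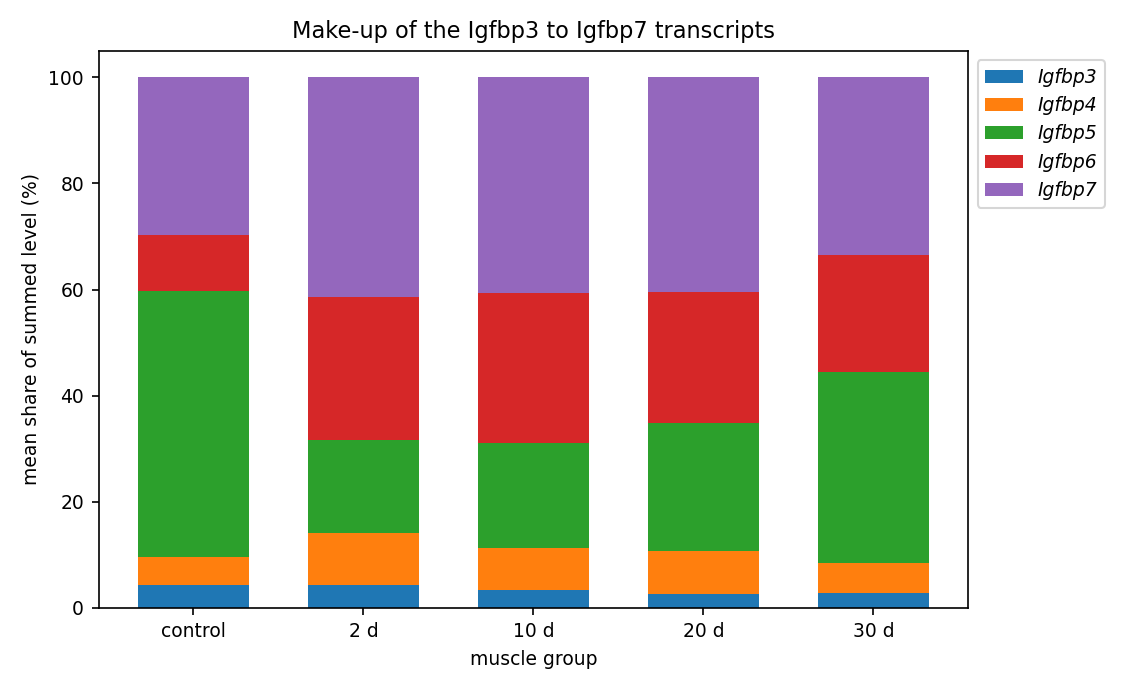
Mean share in percent of each of the 5 Igfbp transcripts in their summed level, as stacked bars of the whole sum, for the 12 control muscles and the 3 trained muscles of each time point. The Igfbp5 share is 50.1% in controls, 17.5% at 2 days and 36.1% at 30 days, and Igfbp6 goes from 10.6% to 28.3% at 10 days.

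The pathway around the members was read from a list of 47 further genes in 3 groups, of which 37 were tested. At 2, 10, 20 and 30 days, 5, 6, 4 and 4 of the 37 were called higher (13.5%, 16.2%, 10.8% and 10.8%), close to the 15.4%, 15.6%, 11.7% and 11.1% of all tested genes. The numbers called lower were 7, 7, 4 and 8 (18.9%, 18.9%, 10.8% and 21.6%, beside 13.5%, 13.3%, 9.64% and 9.46% of all genes). With animal as a block 8, 10, 12 and 6 were called in place of 12, 13, 8 and 12. Over the 12 pairs 7 were called higher (18.9%, beside 19.7% of all genes) and 13 lower (35.1%, beside 20.5%). Median log2 fold changes by group are set below beside those of all tested genes, which lay between −0.03 and −0.01.

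Growth hormone input, through which pituitary growth hormone raises Igf1, was tested with 6 genes. Of these, 2, 2, 1 and 2 were called lower at 2, 10, 20 and 30 days (33.3%, 33.3%, 16.7% and 33.3%) and the rest were not called. Among all tested genes 13.5%, 13.3%, 9.64% and 9.46% were called lower. The median log2 fold change was −0.59, −0.40, −0.29 and −0.46. Cish and Jak2, picked out after their values were seen, were not called at any time point against the 12 controls. They passed at 2 days with animal as a block, Cish at −1.65 (adjusted p = 0.00149) and Jak2, in the other direction, at 0.55 (adjusted p = 0.00817). Ghr, the growth hormone receptor, held 60.9 ± 9.78 (SD, n = 12) in controls, from 44.2 to 79.3, and 31.8 ± 9.95, 34.0 ± 2.90, 38.1 ± 3.00 and 49.5 ± 4.23 (SD, n = 3) in the trained groups. All trained muscles of 2, 10 and 20 days were below the controls, with log2 fold changes of −0.94, −0.81 and −0.65 (SE 0.15, adjusted p = 4.16e-05, 2.13e-04 and 0.00271). At 30 days it was −0.28 (adjusted p = 0.196), which with animal as a block was −0.55 (adjusted p = 0.0275), and Ghr was lower than in the other leg in 12 of 12 animals.

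Socs2, an inhibitor induced by growth hormone, was lower in 12 of 12 animals, by a log2 fold change over the pairs of −0.63 (SE 0.10, adjusted p = 1.17e-04). By day it was called at 2 days (−0.89, adjusted p = 0.00257) and 30 days (−0.76, adjusted p = 0.0116), but not without trained replicate 2 of 2 days (adjusted p = 0.0591), without trained replicate 1 of 30 days (adjusted p = 0.0636) or, at 30 days, with animal as a block (−0.61, adjusted p = 0.0546). The transcription factors under the receptor, Stat5a and Stat5b, were each lower in 10 of 12 animals (−0.21, adjusted p = 0.0112, and −0.37, adjusted p = 0.0103 over the pairs), and neither was called with values as deposited (adjusted p = 0.0719 and 0.0593).

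The other carriers and the proteases of binding proteins were a list of 11 genes. Igfbp1, Igfbpl1 and Pappa have no row in the table used here, and Igfbp2, Igfals, Pappa2, Stc1 and Adam12 did not pass the filter. Of the 3 tested, Htra1, a secreted serine protease that can cleave IGF binding proteins, held 15.3 ± 2.37 (SD, n = 12) in controls and 25.2 ± 8.50, 28.1 ± 4.23, 27.4 ± 3.39 and 22.2 ± 0.498 (SD, n = 3) in the trained groups. It was called higher at each time point (0.65, 0.84, 0.81 and 0.52, SE 0.14, adjusted p = 0.00131, 8.65e-05, 2.04e-04 and 0.0107) and was higher in 12 of 12 animals. The calls at 2 and 30 days were lost without trained replicate 2 of 2 days (0.40, adjusted p = 0.0654) or trained replicate 3 of 30 days (0.50, adjusted p = 0.0555), and the value at 30 days was 0.31 as deposited (adjusted p = 0.165). Htra3, a protease of the same family, was higher in 11 of 12 animals (0.33 over the pairs, adjusted p = 0.00285). Stc2 was not called at any time point (2, 10, 20 and 30 days: −0.24, 0.34, 0.18 and −0.03).

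Among 28 tested genes of receptor and PI3K-Akt-mTOR signalling, 4, 4, 2 and 3 were called higher (14.3%, 14.3%, 7.14% and 10.7%) and 5, 5, 3 and 6 lower (17.9%, 17.9%, 10.7% and 21.4%), with a median log2 fold change of −0.09, −0.08, −0.16 and −0.10. Apart from Irs2, the changes were small, and several calls by day were lost when a muscle was left out, with values as deposited or with animal as a block. Over the 12 pairs, with animal as a block, 2 Akt kinases went opposite ways: Akt1 was higher in 11 animals (0.30, SE 0.08, adjusted p = 0.00487) and Akt2 lower in 12 (−0.42, SE 0.06, adjusted p = 1.71e-05). By day Akt1 was at 0.05, 0.44, 0.42 and 0.31 and Akt2 at −0.34, −0.47, −0.44 and −0.44. Akt1 at 30 days was −0.12 in the gene-level table (adjusted p = 0.386) and 0.09 as deposited (adjusted p = 0.552). In the gene-level table Akt2 was not called at 2 days (−0.12, adjusted p = 0.529) or 10 days (−0.18, adjusted p = 0.356).

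Rps6kb1, which encodes p70 S6 kinase, was lower in 12 of 12 animals (−0.46, SE 0.07, adjusted p = 4.29e-05), and Grb10, an inhibitory adaptor of the receptors, in 11 (−0.29, adjusted p = 0.00232). Shc1, an adaptor to the Ras pathway, was higher in 12 animals (0.29, adjusted p = 0.00139), although not called with its most abundant transcript alone (0.10, adjusted p = 0.273). For Pik3r2, a regulatory subunit of PI3-kinase, the pairs gave −0.23 (adjusted p = 0.0401), and 0.0507 to 0.0828 when any of 7 animals was left out. Insr, the insulin receptor, was not called (−0.14, −0.26, −0.17 and −0.18 by day, SE 0.15).

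**Figure D5:**
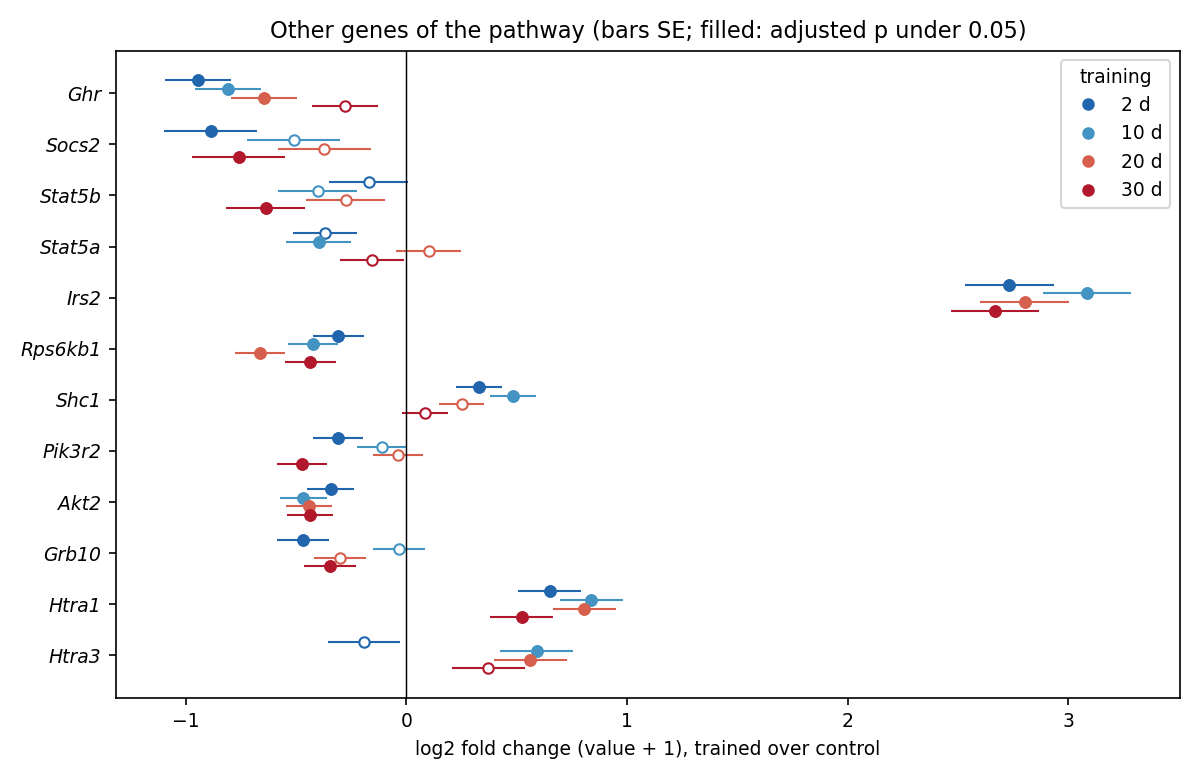
Log2 fold change of value + 1 in trained against control muscles for 12 other genes of the pathway at 2, 10, 20 and 30 days, with bars for the SE and filled points at an adjusted p under 0.05. Irs2 stands alone at 2.67 to 3.09. The growth hormone genes drawn, which are those called at 1 or more time points, lie to the left of 0 except Stat5a at 20 days (0.10), and Htra1 lies to its right.

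Summed fibroblast and macrophage markers lay above the controls in every trained muscle, and endothelial markers did not. The summed level of 5 fibroblast markers was 74.6 to 253 in controls and 301 to 495, 518 to 982, 562 to 614 and 355 to 416 in the trained groups, with 4, 5, 5 and 5 of the 5 called higher. For 7 macrophage markers it was 9.23 to 25.7 in controls and 26.4 to 64.4, 30.6 to 70.0, 40.0 to 48.1 and 37.8 to 52.1, with 6, 7, 7 and 7 of the 7 called higher. The 4 endothelial markers summed to 27.1 to 42.9 in controls, 25.7 to 27.7 at 2 days and 32.2 to 61.1, 48.5 to 54.0 and 40.7 to 54.8 later, with 0, 1, 2 and 2 called higher and 1 lower at 2 days. Among all tested genes 15.4%, 15.6%, 11.7% and 11.1% were called higher at 2, 10, 20 and 30 days, and 13.5% lower at 2 days. No marker in the table was at 0 in every muscle. The part of these markers in the rise of Igf1, Igf2, Igfbp4, Igfbp6 and Igfbp7 was not tested, and in whole muscle more cells of a type cannot be told apart from more RNA per cell.

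Marker sums of the other cell types overlapped the controls more. Satellite cell markers summed to 6.32 to 11.7 in controls and 6.19 to 10.9 in trained muscles. For smooth muscle and pericytes the ranges were 51.3 to 82.9 and 57.1 to 105, for Schwann cells 10.6 to 29.3 and 12 to 37.7, for adipocytes 1.31 to 5.05 and 3.23 to 9.49, and for erythroid cells 315 to 921 and 278 to 693. Fibre markers summed to 52300 to 89396 in trained muscles. At 30 days they summed to 64559 to 70737, below the lowest control of 73485. Of the 5 fibre markers, 1, 3, 3 and 2 were called lower at 2, 10, 20 and 30 days and 0, 2, 0 and 0 higher. Among all tested genes 13.5%, 13.3%, 9.64% and 9.46% were called lower.

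Likeness of pattern was read as Pearson's r of log2 levels over the 24 muscles, trained and control together, among 5858 genes with a mean of at least 5, as a description only. Closest to Igf1 were Ptn (r = 0.83), which encodes the growth factor pleiotrophin, Ccdc80 (r = 0.80), a matrix protein gene, and Cd48 (r = 0.80), a leukocyte surface protein gene. Among the genes closest to Igfbp5 were LOC688754 and Mmut, methylmalonyl-CoA mutase, each at r = 0.88. Both sets hold the difference between trained and control muscles. Among the members the closest pair was Igfbp4 with Igfbp7 (r = 0.89), and r was 0.65 within the 12 trained and 0.87 within the 12 control muscles.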

How the data were processed

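RNA-seq of 24 rat tibialis anterior muscles was used, 12 trained and 12 contralateral. The authors trimmed reads below a Phred score of 25, aligned them to Rnor_6.0 (rn6) with STAR in Partek Flow, quantified Ensembl release 99 transcripts and normalised and tested with DESeq2. The authors deposited TPM-type transcript values, each sample adding up to 634431, and a gene-level table of 4635 genes in units of signal, which holds 6 of the 10 members. Neither table holds counts, so the depth behind each value cannot be read from them, the precision it gives is unknown and no count test was run. A table of the authors' own comparisons, with p-values, FDR, ratios and group means, was not used.

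Each muscle's values were scaled by its median of ratios over the 16230 transcripts above 0 in every muscle, then summed per gene symbol. The limma package (3.58.1, R 4.3.3) was run on log2(value + 1), and other steps used Python 3.11.15 with numpy 2.4.6, pandas 2.3.3 and matplotlib 3.10.9. The pseudocount of 1 understates changes of low genes. Genes had to reach a value of 1 in 3 or more muscles. The fit held 5 groups, with the 12 controls pooled and no block, and an F test over time points was run in trained muscles, in control muscles (8 groups) and for the training effect (animal as a block). P-values were adjusted by Benjamini-Hochberg over all tested genes. The labels tie both legs to 1 animal, and deviations from group means correlated weakly within animals (median r 0.174 over 12 pairs, from 0.0277 to 0.343). Between animals of 1 time point the median was −0.100. Deviations from the mean of a group of 3 cancel out, which ties this value to the first, so it is not a separate contrast. No 2 muscles were identical (276 pairs compared).

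The text names all 10 members with their transcripts, other pathway genes called at 1 or more time points (at most 6 per list, by largest change) and the 3 genes most like Igf1 and Igfbp5, of which 1 is not reported here. Akt1, Insr, Stc2, Cish, Jak2 and the genes outside the filter were named outside that rule, after their values were seen. Members and lists were chosen with earlier results of these data known. Coordinates of transcripts follow the deposited table, on Rnor_6.0, and start regions follow RefSeq on GRCr8. The fits were tested on simulated data. Alternatives were values as deposited, a pseudocount of 0.1, no filter, a mean of at least 10, time-matched controls, animal as a block, the transcript with the highest mean, an intensity trend, the gene-level table, a threshold of 0.01 and each muscle or animal left out.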

Additional observations from a re-analysis of the deposited data

Results flagged for a closer look

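The training effect on Igfbp5 differed between time points (limma F test with animal as a block, adjusted p = 0.00695). The trained muscle was below the contralateral muscle in 3 of 3 animals at 2, 10 and 20 days and in 2 of 3 at 30 days, and the ratio moved from between 0.321 and 0.420 to between 0.865 and 1.00. No group of 4 to 10 muscles was available in which to look for single muscles that stand apart.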

How the results depend on the processing

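Of 586 values of single members under settings that kept all muscles, 565 stayed on the same side of the threshold, as did 954 of 972 with 1 muscle or animal left out, and 0 changed direction after a call in either fit. For the 15 other pathway genes described apart from Cish and Jak2, 587 of 653 and 1007 of 1080 stayed on the same side, and 1 changed direction (Akt1 at 30 days, −0.12 in the gene-level table). Values are TPM-type and keep no depth, so the limit that depth sets cannot be read from them, and with 3 trained muscles per time point single muscles carried several calls. The cause of the changes below was not tested.

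Counts at 2, 10, 20 and 30 days are given in that order, and a count that stayed within 1.5 times of the reported one is left out. Members called fell from 5 to 3 at 20 days with a mean of at least 10, where 5 members were tested, and also to 3 at 20 days and 1 at 30 days with the gene-level table, where 6 were tested, and to 2 at 30 days with time-matched controls. The training effect over time called 0 members with values as deposited or without the animal block, against 1.

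All genes called, against 3235, 3240, 2393 and 2304, were 1654, 1420, 1064 and 1155 with a mean of at least 10 (3841 genes tested), 1958, 2050, 1420 and 1296 at a threshold of 0.01, and 1344, 1056 and 729 at 2, 10 and 20 days with the gene-level table (4635 genes tested). Time-matched controls gave 2007, 1589 and 1121 at 10, 20 and 30 days. Over time, trained muscles (1345) gave 2533 as deposited and 571 at 0.01, control muscles (17) gave 10 as deposited, 26 with an intensity trend and 6 at 0.01, and the training effect (128) gave 30 with a pseudocount of 0.1, 69 without a filter, 271 with a mean of at least 10, 193 with an intensity trend and 17 at 0.01. The 12 pairs gave 1723 with a mean of at least 10, against 4494.

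Other pathway genes called, against 12, 13, 8 and 12, were 6 and 4 at 2 and 30 days at a threshold of 0.01, 6 and 5 at 2 and 30 days with time-matched controls, 8 at 10 days as deposited, 4, 4 and 2 at 2, 10 and 20 days with the gene-level table (12 tested), and 11 over the 12 pairs with a mean of at least 10, against 20.

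With animal as a block, 1377 genes and 6 other pathway genes were called at 30 days, and 3, 5, 6 and 4 members at 2, 10, 20 and 30 days. No member's call changed other than those given for Igf1, Igfbp4 and Igfbp5.

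With 1 muscle left out, members called ranged from 2 to 4, 5 to 6, 4 to 6 and 2 to 5 at the 4 time points, all genes from 1513 to 3505, 2147 to 3296, 1734 to 2500 and 1472 to 2440, and other pathway genes from 3 to 13, 8 to 14, 5 to 9 and 4 to 12. Over time, trained muscles gave 2 to 3 members and 695 to 1614 genes and control muscles 0 members and 4 to 20 genes. With 1 animal left out, the training effect gave 1 member and 20 to 343 genes, and the 12 pairs 6 members, 4119 to 4401 genes and 17 to 20 other pathway genes.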

Other observations

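Control muscle 1 of 10 days held 10.2 for Igfbp3, against 3.06 to 5.30 in the other 11 controls, and it held the highest Igf1 of the controls (10.5). The trained muscle of that animal held 5.75 for Igfbp3 and 10.6 for Igf1.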
